A study of Mus musculus with 6 samples.

Results

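The secondary granule genes of neutrophils were described as a set of 10 genes chosen by name for their place in these granules: Ltf, Lcn2, Camp, Ngp, Lyz2, Pglyrp1, Chil3, Wfdc21, Itgb2l and Ifitm6. They were 10 of 53458 genes summed from the transcript tables, all 10 had at least 316 estimated reads in every library, and all 10 passed the filter on low counts. The libraries came from leukemic blasts of mouse bone marrow (strain given as C57/BL6) after transplantation. The labels give the samples the genotype Cebpa-/p30. That genotype has no allele for full-length C/EBPα and 1 allele for its short p30 form, and it is shared by every library. The WT group (3 libraries) had unaltered Asxl1, and the G643W group (3 libraries) carried Asxl1G643W/G643W, a change in both alleles of this chromatin regulator. Blasts were sorted as CD45.2+ cells, low for Mac1 and Gr1 and negative for Ter119, B220 and CD3. Ages, pooling and the number of primary leukemias behind the libraries are not stated, and the p-values therefore reflect only how much these 6 libraries vary, which may be technical. Each library held between 61167075 and 101189225 estimated reads.

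Neutrophils store their antimicrobial proteins in granules that are filled in sequence during maturation. Primary granules form in promyelocytes, secondary (specific) granules in myelocytes and metamyelocytes, and gelatinase granules later. C/EBPα opens the path to the granulocyte lineage, and C/EBPε is needed for expression of many secondary granule genes. Lyz2 and Chil3 are less specific, since monocytes and macrophages also make lysozyme and the chitinase-like protein Ym1.

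Levels are given as CPM per kilobase. This is the TMM-scaled CPM (a gene's share of its library's reads) divided by the length of the gene's transcript with the most reads. This scale was preferred to summed TPM because short annotated fragments dominated the TPM of Ltf and Chil3. The 2743-base transcript of Ltf held 52.1% of the gene's reads and 2.95% of its TPM, and the 1539-base transcript of Chil3 held 90.0% of its reads and 13.3% of its TPM. By mean TPM, Chil3 ranked 1 and Ltf 10 of all genes, whereas by CPM per kilobase Chil3 ranked 5 and Ltf 55. On the latter scale Lyz2 ranked 3, Camp 4, Ngp 8 and Lcn2 22, with Wfdc21 at 157, Pglyrp1 at 166, Ifitm6 at 234 and Itgb2l at 757. The share of all reads that went to the 10 genes was 3.04% in WT library 1, 2.58% in WT library 2 and 4.06% in WT library 3. In the G643W libraries, in the same order, it was 1.64%, 8.14% and 4.58%. Values for other genes are given in the same order of libraries.

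No member of this set passed the test between genotypes, and all members except Chil3 and Lyz2 differed at least 17.4-fold between libraries. With edgeR's quasi-likelihood test, 0 of 10 members had an adjusted p under 0.05 and 0 had an unadjusted p under 0.05. Over all 20654 genes tested, 0.121% passed the adjusted threshold (0.0533% higher and 0.0678% lower in G643W) and 9.66% the unadjusted one. DESeq2 also called 0 of 10 at an adjusted p under 0.05, where it called 2.26% of the genes to which it gave an adjusted p (0.867% higher in G643W). Pglyrp1 alone had an unadjusted DESeq2 p under 0.05. The genotypes overlapped in all 10 genes, while 15.9% of tested genes had no overlap. The log2 difference (G643W minus WT) was positive for 8 of 10 members, with a median of 1.28 over the 10, beside -0.01 over all tested genes.

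**Figure D1:**
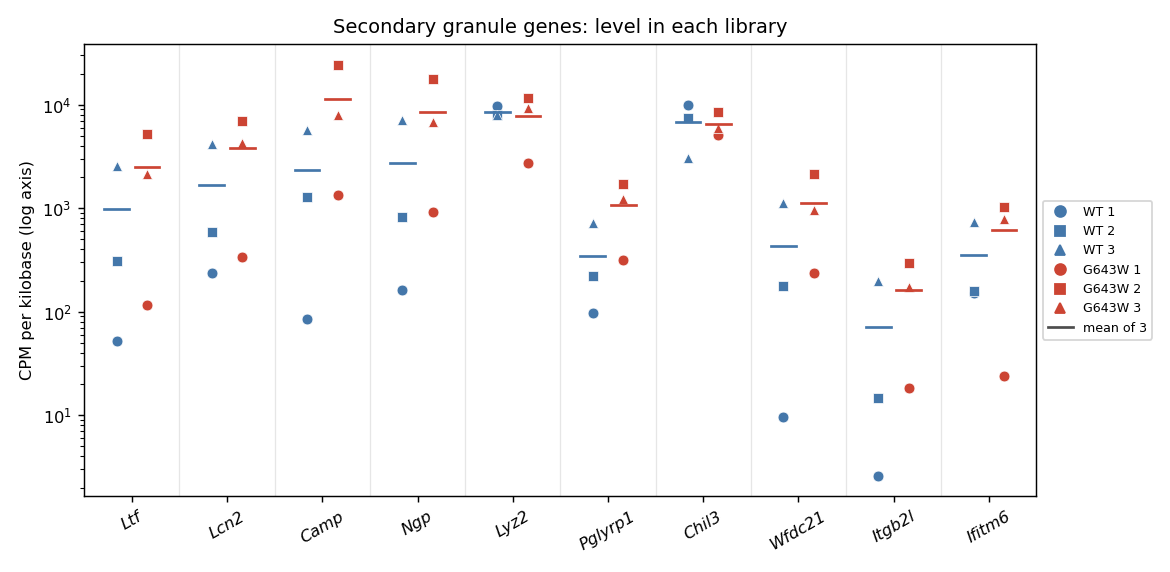
Level of each member in each library, as CPM per kilobase on a log axis; blue symbols are WT and red symbols G643W libraries, the symbol shape gives the library number, and bars are means of 3. Camp ranges from 84.9 in WT library 1 to 24419 in G643W library 2, while Chil3 stays between 3067 and 9957.

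The iron-binding members came first in the set. Ltf encodes lactoferrin, which binds iron, and lay at 51.8, 306 and 2582 CPM per kilobase in the WT group and at 116, 5261 and 2118 in the G643W group. WT library 3 was above G643W libraries 1 and 3, so that the genotypes overlapped. The log2 difference of Ltf was 1.35 ± 1.54 (SE, edgeR adjusted p = 0.739, 95% interval -2.29 to 4.99). Taken on the full-length transcript alone, the TPM of Ltf was 12.9, 69.7 and 638 for WT and 29.1, 1174 and 523 for G643W, with the libraries ranked as before. Lcn2 encodes lipocalin-2, which captures bacterial siderophores, and lay at 238, 590.3 and 4153 CPM per kilobase in WT and at 337, 6898 and 4284 in G643W libraries. Its log2 difference was 1.21 ± 1.27 (SE, edgeR adjusted p = 0.714), and G643W library 1 again lay below WT library 2.

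Of the cathelicidin-related members, Camp had the widest range of the 10 genes. Camp encodes the precursor of the antimicrobial peptide CRAMP, and lay at 84.9, 1297 and 5655 CPM per kilobase in WT and at 1327, 24419 and 8007 in G643W libraries. G643W libraries 2 and 3 were above every WT library, whereas G643W library 1 was close to WT library 2. The log2 difference of Camp, the largest of the 10, was 2.26 ± 1.46 (SE, edgeR adjusted p = 0.587, 95% interval -1.18 to 5.71). The level of Camp differed 66.6-fold between the lowest and the highest WT library, beside a ratio of genotype means of 4.80. Ngp encodes neutrophilic granule protein, a relative of the cathelicidins, and lay at 162, 825 and 7130.2 CPM per kilobase in WT and at 925, 17543 and 6782 in G643W libraries. The log2 difference of Ngp was 1.64 ± 1.43 (SE, edgeR adjusted p = 0.666), with WT library 3 above 2 of the 3 G643W libraries.

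Camp, Ngp and Ltf lie on the same stretch of chromosome 9. In GENCODE M21 (GRCm38), Camp spans 109847379 to 109849617 on the minus strand, Ngp 110419747 to 110423012 on the plus strand and Ltf 111019271 to 111042767 on the plus strand. The 3 genes fall within 1195 kilobases, with gaps of 570.1 and 596 kilobases between them. The other members are spread over chromosomes 2 (Lcn2), 3 (Chil3), 7 (Pglyrp1 and Ifitm6), 10 (Lyz2), 11 (Wfdc21) and 16 (Itgb2l). Bases before the starts of these 3 genes, which varied together across libraries, are shown beside those of Chil3, which did not vary with them. Members on other chromosomes, among them Lcn2, Pglyrp1 and Itgb2l, also varied with these 3 genes. They are taken from RefSeq promoter sequences (GRCm38.p6), read 5′ to 3′ on the gene's strand, and end at the more upstream of the RefSeq and GENCODE starts. Capitals mark each match to a C/EBP-type motif.
Ltf, chr9:111019121-111019270, plus strand: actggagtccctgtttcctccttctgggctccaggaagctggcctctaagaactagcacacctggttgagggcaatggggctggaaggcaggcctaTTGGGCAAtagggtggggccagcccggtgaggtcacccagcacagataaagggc
Ngp, chr9:110419597-110419746, plus strand: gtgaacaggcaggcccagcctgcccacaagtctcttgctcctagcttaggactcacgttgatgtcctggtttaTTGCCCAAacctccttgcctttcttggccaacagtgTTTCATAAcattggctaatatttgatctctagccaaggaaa
Camp, chr9:109849618-109849706, minus strand: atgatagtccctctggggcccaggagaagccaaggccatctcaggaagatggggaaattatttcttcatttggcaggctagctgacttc
Chil3, chr3:106167565-106167714, minus strand: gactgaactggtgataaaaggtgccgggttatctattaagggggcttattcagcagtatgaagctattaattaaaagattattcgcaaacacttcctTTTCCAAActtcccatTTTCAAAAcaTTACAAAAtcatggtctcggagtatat

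The motif searched was TTNCNNAA on both strands (TTNNGNAA when read on the other strand). The printed windows held 1 match for Ltf, 2 for Ngp, 0 for Camp and 3 for Chil3, so the letters were present before Chil3 as well as before Ltf and Ngp. The windows of Itgb2l and Lyz2, cut in the same way but not printed, held 0 each. Within 250 bases before the RefSeq start, 7 of the 9 members with a sequence in the table held a match, beside 36.8% of 32526 promoters of that length. The PU.1-type motif GAGGAA (or TTCCTC) was in 4 of the 9, beside 23.4% of promoters, and no PU.1 match overlapped a C/EBP match in a member. Unlike the printed windows, those counted here were not cut at the GENCODE start. The counted windows of Lcn2, Pglyrp1 and Ifitm6 lay wholly past that start. The C/EBP count includes Lcn2 and Ifitm6, and the PU.1 count includes Lcn2 and Pglyrp1. Such matches are letters in a window and say nothing on binding.

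The members that act on bacterial cell walls did not share a profile. Lyz2 encodes lysozyme M, which cleaves peptidoglycan, and lay at 9804, 7932 and 7942 CPM per kilobase in WT and at 2719, 11639.9 and 9223 in G643W libraries. The WT libraries were close together and G643W library 1 was the low one. The log2 difference of Lyz2 was -0.12 ± 0.56 (SE, edgeR adjusted p = 0.944, 95% interval -1.44 to 1.19). The transcript of Lyz2 is 95.8% identical to that of Lyz1 over 96.0% of its length, but Lyz1 held at most 5061 estimated reads where Lyz2 held at least 244718, and the log2 ratio of genotype means was -0.13 with both summed. Pglyrp1 encodes peptidoglycan recognition protein 1, and lay at 98.0, 220.1 and 717 CPM per kilobase in WT and at 316, 1703 and 1231 in G643W libraries. G643W libraries 2 and 3 exceeded every WT library. Its log2 difference was 1.65 ± 0.85 (SE, edgeR adjusted p = 0.542, 95% interval -0.35 to 3.65), the lowest p of the 10 genes.

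Chil3, the gene of the chitinase-like lectin Ym1, departed from most other members in the WT libraries. It lay at 9957, 7398 and 3067 CPM per kilobase in WT and at 5141, 8443 and 5894 in G643W libraries, lowest in the WT library where Ltf, Camp and Ngp were highest among WT. Within G643W, Chil3 was lowest in library 1 and highest in library 2, as Ltf, Camp and Ngp were, and Lyz2 shared with it the highest WT level in library 1. The log2 difference of Chil3 was -0.07 ± 0.51 (SE, edgeR adjusted p = 0.963, 95% interval -1.27 to 1.13). The related Chil4 is 94.3% identical over the whole transcript and held at most 1462 estimated reads, beside at least 355329 for Chil3. Of the set's summed CPM per kilobase, Chil3 made up 48.4% and Lyz2 47.7% in WT library 1, where the other members were low. In G643W library 2 these shares were 10.6% and 14.7%.

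The remaining members followed Ltf in most libraries. Wfdc21, which encodes a small protein with a whey acidic protein domain, lay at 9.57, 178 and 1111 CPM per kilobase in WT and at 239, 2136 and 956 in G643W libraries (log2 difference 1.36 ± 1.41, SE, edgeR adjusted p = 0.712). Itgb2l, an integrin subunit related to the beta 2 chain of leukocytes, lay at 2.60, 14.6 and 198 in WT and at 18.3, 295 and 173 in G643W libraries (log2 difference 1.18 ± 1.49, SE, edgeR adjusted p = 0.765). In both genes WT library 3 exceeded 2 of the 3 G643W libraries. Ifitm6, of a family of interferon-induced membrane proteins, lay at 151, 160.2 and 741 CPM per kilobase in WT and at 24.1, 1026 and 791 in G643W libraries (log2 difference 0.81 ± 1.17, SE, edgeR adjusted p = 0.796). Ifitm6 was lowest in G643W library 1, where 7 other members were lowest in WT library 1.

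**Figure D2:**
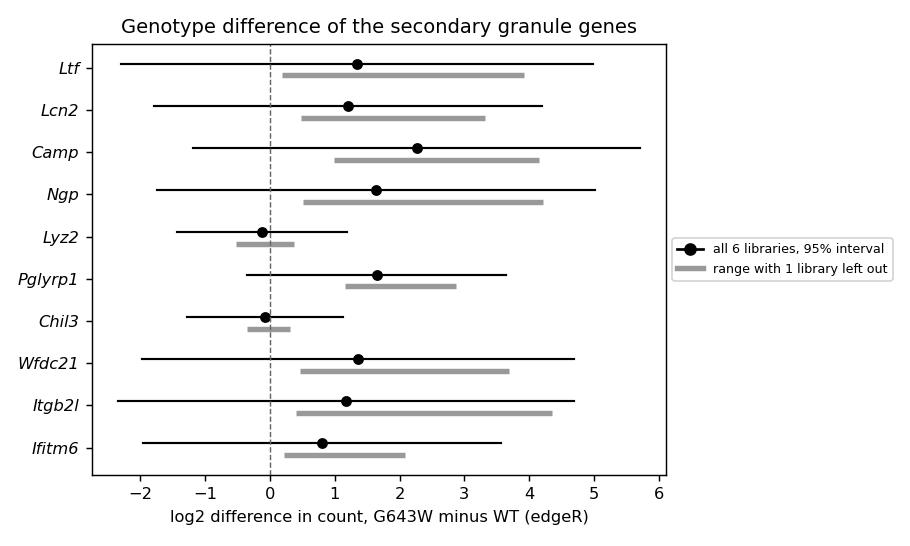
Log2 difference in count between genotypes (G643W minus WT, edgeR) for each member: points and black lines are the estimate from 6 libraries with its 95% interval, and grey bars are the range of estimates with 1 library left out. All 10 intervals include 0, and the grey bars of Chil3 and Lyz2 cross it.

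Which library was left out set the size of the difference. The median log2 difference of the 10 genes was 0.44 without G643W library 2 and 3.50 without WT library 3. No member passed with any library left out, and the lowest edgeR adjusted p among these fits was 0.198, for Pglyrp1. Without WT library 3, 6 of 10 members had an unadjusted edgeR p under 0.05. Over all genes that number was 3200 in the same fit, beside 1996 (9.66% of those tested) with all 6 libraries. The filter was run anew without that library, and the share of genes tested was not counted there. G643W library 2 had the highest level in 9 of 10 genes, WT library 3 was the highest WT library in 8 of 10, and G643W library 1 was the lowest G643W library in 10 of 10. In all 10 genes the ratio between the highest and the lowest WT library exceeded the ratio of genotype means (G643W over WT). For Chil3 and Lyz2 the ratio of means was below 1 (0.954 and 0.918), so their outcome was fixed in advance. The share of all genes for which this holds was not counted.

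The spread over the 6 libraries differed between members. The SD of log2 CPM was above 2 in 7 members, with 2.85 for Camp, 2.82 for Wfdc21, 2.72 for Itgb2l, 2.71 for Ltf, 2.54 for Ngp, 2.13 for Lcn2 and 2.08 for Ifitm6. It was 1.57 for Pglyrp1, 0.75 for Lyz2 and 0.61 for Chil3, and the median over all tested genes was 0.58. From the lowest to the highest library this amounted to 288-fold for Camp, 223-fold for Wfdc21, 114-fold for Itgb2l, 108-fold for Ngp, 102-fold for Ltf, 42.6-fold for Ifitm6, 28.9-fold for Lcn2 and 17.4-fold for Pglyrp1. The same ratio was 4.28 for Lyz2 and 3.25 for Chil3. Likeness was measured as the root mean square difference in log2 CPM, centred per gene, between each member and the mean of the other 9. It was smallest for Lcn2 (0.41) and Pglyrp1 (0.52), followed by Ngp (0.75), Ltf (0.88) and Itgb2l (0.96). It was 1.18 for Camp, 1.25 for Ifitm6 and 1.27 for Wfdc21, and largest for Lyz2 (1.73) and Chil3 (2.18), so that the values were graded.

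**Figure D3:**
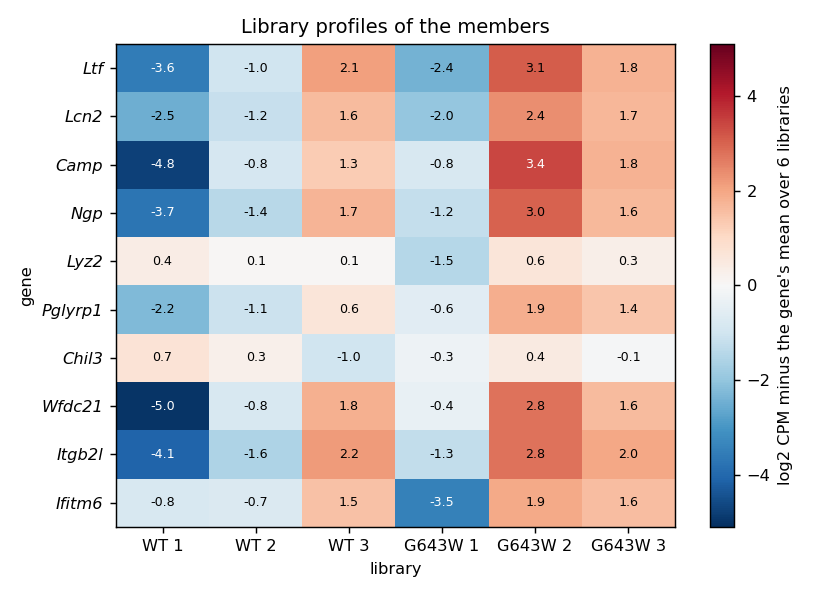
Log2 CPM of each member in each library minus its own mean over the 6 libraries, with red above and blue below that mean. Wfdc21 runs from -5.02 in WT library 1 to 2.77 in G643W library 2, while the rows of Lyz2 and Chil3 stay pale except Lyz2 in G643W library 1 and Chil3 in WT library 3.

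Of 8760 other protein-coding genes with a mean of at least 10 CPM, the 6 whose centred log2 CPM over the 6 libraries was closest to the members' mean were Anxa1, Mocos, Ifnlr1, Ccno, Reck and Elovl7. Their root mean square differences lay between 0.21 for Anxa1 and 0.40 for Elovl7. Anxa1 encodes annexin A1, an abundant protein of neutrophils, and lay at 112, 286 and 1121.5 CPM per kilobase in WT and at 282, 2803 and 1725 in G643W libraries, with G643W libraries 2 and 3 above every WT library. The other 5 genes had at most 31.3 CPM per kilobase in any library.

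As a sum, the primary granule genes ranked the G643W libraries opposite to most secondary granule members, but ranked the WT libraries alike. Summed over Ltf, Lcn2, Camp, Ngp, Pglyrp1, Wfdc21, Itgb2l and Ifitm6, a sum made after the profiles of Chil3 and Lyz2 had been seen, levels were 798, 3591 and 22288 CPM per kilobase in WT and 3302, 59282 and 24342 in G643W libraries. The 10 primary granule genes summed to 1590.1, 4648 and 7249 in WT and to 9264, 1943 and 4692 in G643W libraries. The ratio of the first sum to the second was 0.502, 0.773 and 3.07 in WT and 0.356, 30.5 and 5.19 in G643W libraries. Mpo, the myeloperoxidase of primary granules, lay at 325, 1590.5 and 2421 CPM per kilobase in WT and at 2984, 272 and 1116 in G643W libraries, so that it was lowest where Camp was highest. Elane, neutrophil elastase, was lowest in WT library 1 (50.6) and highest in G643W library 1 (1904), and the proteinase gene Prtn3 was lowest in G643W library 2 (249). Serpinb1a, an inhibitor of these proteases on the same list, varied less, from 179.5 in WT library 1 to 446 in G643W library 2. Camp was lowest and highest in the same libraries as Serpinb1a.

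**Figure D4:**
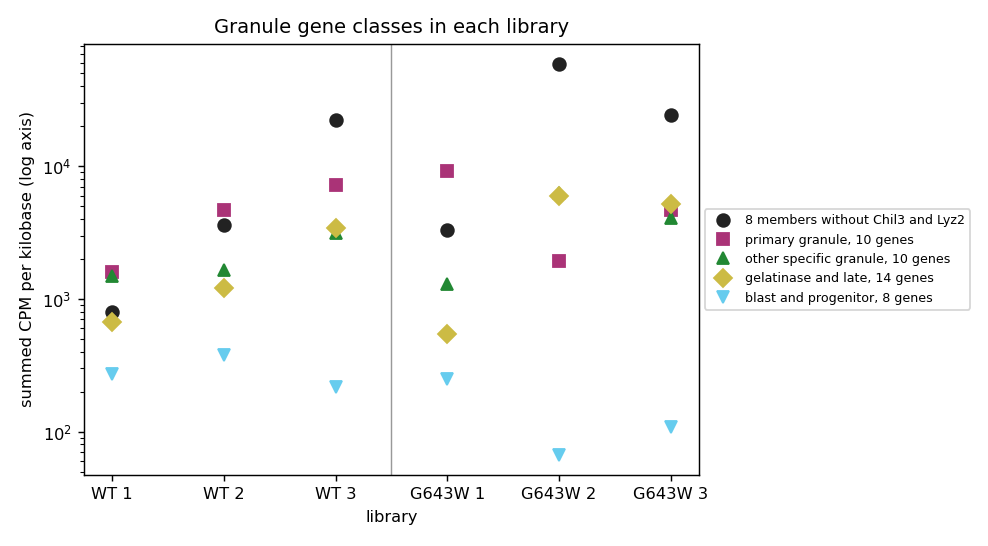
Summed CPM per kilobase of 5 gene classes in each library on a log axis, with WT libraries on the left and G643W libraries on the right of the line. The 8 members without Chil3 and Lyz2 exceed the primary granule genes in WT library 3 and G643W libraries 2 and 3 and lie below them in the other 3 libraries.

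The other genes of specific granules also had their highest sum, 6298 CPM per kilobase, in G643W library 2. Of 10 listed, 9 were tested, 0 passed in either direction, and the median log2 difference was 1.02. Cd177, a surface protein stored in specific granules, lay at 81.4, 86.9 and 565 CPM per kilobase in WT and at 93.8, 897 and 493 in G643W libraries. Hp, haptoglobin, lay at 335, 421 and 739 in WT and at 297, 1017 and 719 in G643W libraries. Chil1, a chitinase-like gene, covered a wider range than any member, at 0.17, 14.1 and 142 in WT and at 78.8, 504 and 293 in G643W libraries. Cyba, a membrane subunit of the NADPH oxidase, stayed between 511 and 986, and Slpi, a protease inhibitor, between 148 and 685. Of the 10 primary granule genes 0 passed in either direction, with a median log2 difference of 0.37. An unadjusted edgeR p under 0.05 was found for 1 of the 10, beside 9.66% of all tested genes.

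Markers of later neutrophils, as a sum, were highest in the same 3 libraries as the 8 members. The 14 genes of the gelatinase and late list summed to 664, 1198 and 3429.8 CPM per kilobase in WT and to 547, 5968 and 5176 in G643W libraries. Of its 13 tested genes 0 passed, with 0 at an unadjusted edgeR p under 0.05 and a median log2 difference of 1.44. Ly6g, which encodes an antigen seen by Gr1 antibodies, lay at 3.94, 15.8 and 147 CPM per kilobase in WT and at 4.77, 368 and 118 in G643W libraries. Itgam, the alpha chain of Mac1, lay at 93.6, 77.3 and 281 in WT and at 67.6, 476 and 403 in G643W libraries. Both are targets of the gate that selected low cells. Retnlg, a resistin-like gene of neutrophils, lay between 116 and 2981. Il1b, an inflammatory cytokine on this list, was an exception, singled out after its values were seen, at 30.3, 11.5 and 6.53 in WT and 1.57, 24.7 and 23.9 in G643W libraries. In bulk RNA, more cells of a type and more RNA per cell cannot be told apart, and the part of late neutrophils in these levels was not tested.

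Regulators of granule genes were read next, since no library has an allele for full-length C/EBPα. None of 13 listed regulators passed with edgeR, and the median log2 difference was 0.06. An unadjusted edgeR p under 0.05 was found for 2 of the 13, beside 9.66% of all tested genes. Cebpe, the C/EBP factor of secondary granule genes, lay at 35.7, 67.7 and 159 CPM per kilobase in WT and at 76.1, 434 and 183 in G643W libraries, lowest and highest in the same libraries as Ltf and Camp. Its log2 difference was 1.40 ± 0.74 (SE, edgeR adjusted p = 0.549). Cebpa lay at 119, 187 and 69.3 in WT and at 129, 14.7 and 25.1 in G643W libraries, lowest where Cebpe was highest. Klf5, a zinc finger factor, lay at 0.34, 1.05 and 6.45 in WT and at 0.76, 19.9 and 7.94 in G643W libraries. Csf3r, the G-CSF receptor, was between 60.2 and 173, and Stat3, which signals below it, between 28.9 and 54.7.

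The other regulators included a repressor and factors of other lineages. Gfi1, a repressor needed for neutrophil formation, lay at 10.5, 24.3 and 35.1 CPM per kilobase in WT and at 46.6, 23.7 and 27.6 in G643W libraries, highest in G643W library 1 like Mpo. Spi1 (PU.1) lay at 159, 158 and 194 in WT and at 117, 217 and 182 in G643W libraries, highest in the libraries where most members were high but over a narrow range. Cux1 stayed between 38.3 and 55.2, Cebpb between 32.2 and 100.4 and Cebpd between 20.2 and 55.3, and Lef1 was at most 0.29. Irf8, a factor of monocytes and dendritic cells, lay at 75.6, 80.7 and 67.3 in WT and at 38.1, 8.65 and 17.0 in G643W libraries, with no overlap. Its log2 difference was -1.81 ± 0.51 (SE, edgeR adjusted p = 0.454, DESeq2 adjusted p = 0.0426), so that the call differed between tools. Runx1 also had no overlap in CPM, and its log2 difference was -0.76 ± 0.21 (SE, edgeR adjusted p = 0.454). These were 2 of 13 regulators, beside the 15.9% of all tested genes.

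**Figure D5:**
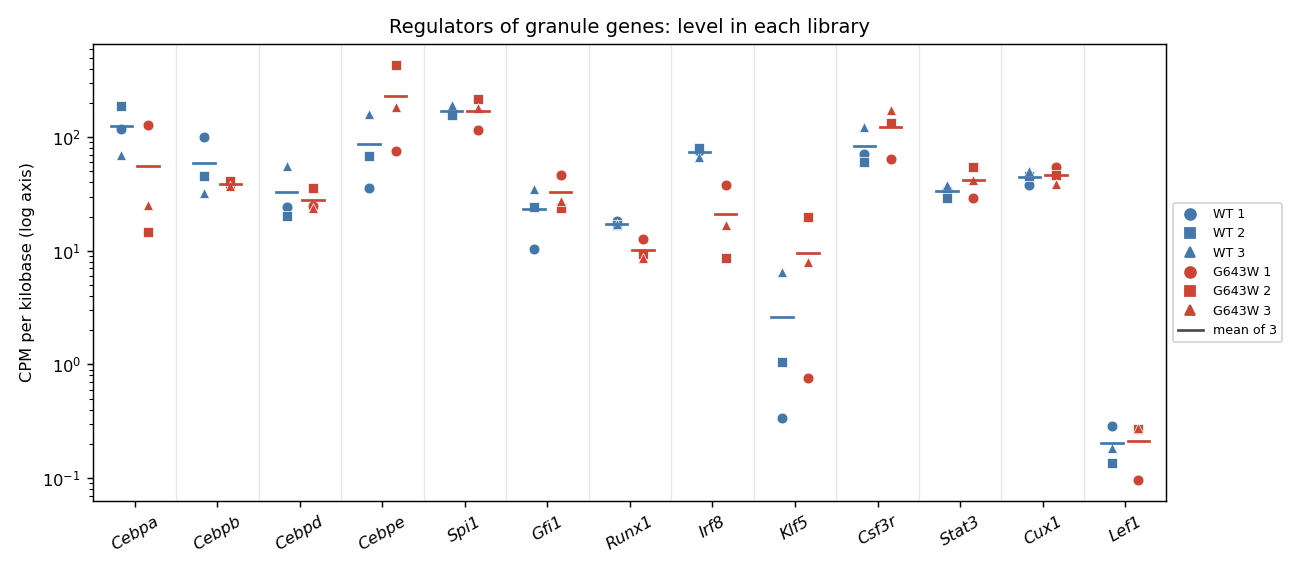
Level of 13 regulators in each library, as CPM per kilobase on a log axis, with symbols as in the plot of member levels. Cebpe is highest in G643W library 2 (434), where Cebpa is lowest (14.7), and the WT and G643W symbols of Irf8 do not overlap.

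Markers of other cells were checked against the label of leukemic blasts. The 8 blast and progenitor genes summed to 272, 378 and 215 CPM per kilobase in WT and to 251, 66.4 and 108 in G643W libraries, lowest where the secondary granule genes were highest. Of the 7 tested genes 0 passed with edgeR, and the median log2 difference was -1.34. An unadjusted edgeR p under 0.05 was found for 3 of the 7, beside 9.66% of all tested genes. The genotypes did not overlap in 4 of the 7 (Cd34, Flt3, Cd48 and Sox4, named here after their values were seen), beside 15.9% of all tested genes. Flt3, a receptor of progenitors, had a log2 difference of -3.04 ± 0.61 (SE), with an adjusted p of 0.298 from edgeR and 0.000176 from DESeq2. Kit lay at 2.86, 13.1 and 18.4 in WT and at 30.6, 5.49 and 7.27 in G643W libraries, and Cd34 at 99.1, 160.6 and 59.6 in WT and 48.8, 12.0 and 25.4 in G643W libraries. Monocyte genes, which bear on Lyz2 and Chil3, summed to 4809, 4067 and 4846 in WT and to 3745, 3119.9 and 3779 in G643W libraries. Of these 10 genes 0 passed with edgeR, 9 had a negative log2 difference, and the median was -1.40. An unadjusted edgeR p under 0.05 was found for 5 of the 10, beside 9.66% of all tested genes. Ly6c2, the most abundant of them, lay at 2198, 1805 and 3882 in WT and at 3116, 2879.7 and 3077 in G643W libraries, with a positive log2 difference of 0.20 ± 0.36 (SE, edgeR adjusted p = 0.835). Ms4a6c lay at 335, 284 and 139 in WT and at 132, 40.2 and 102 in G643W libraries. S100a4 lay at 1412, 1297 and 420.3 in WT and at 188, 76.3 and 307 in G643W libraries, and F13a1 at 268, 296 and 114 in WT and 75.8, 21.8 and 64.5 in G643W libraries. Both were among 5 of 10 monocyte genes without overlap, beside 15.9% of all tested genes, and DESeq2 called both lower (adjusted p = 0.0141 and 0.0259) where edgeR did not (adjusted p = 0.434 and 0.454). Macrophage genes summed to 295, 143 and 95.5 in WT and to 107, 71.4 and 138 in G643W libraries. The complement genes C1qa and C1qb were highest in WT library 1 (65.7 and 75.0), the library with the highest Chil3. Adgre1, which encodes F4/80, was highest in G643W library 3 (95.8) and Vcam1 in G643W library 1 (42.3), while Mrc1 was lowest in WT library 1 (0.57). The part of monocytes and macrophages in the levels of Lyz2 and Chil3 was not tested.

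Lineages that the sort was set to remove were low. Erythroid genes summed to at most 41.6 CPM per kilobase, B cell genes to at most 33.4 (mostly Cd79b, at most 31.3) and T cell genes to at most 6.46. The defining T cell marker Cd3e was at most 0.16. Other granulocyte markers were not all low. Among eosinophil genes Epx was at most 0.21 while Ear2 reached 219 in WT library 1, and among mast cell and basophil genes Cpa3 reached 253 in WT library 2 and Prss34 had no reads.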

How the data were processed

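RNA was sequenced from 6 libraries (3 WT, 3 G643W). Per the submitters' processing notes, the authors used bcl2fastq and Salmon 0.12.0 with the builds mm10 and GRCm38.p6. Salmon's options and strand setting were not given in the sources used here. The authors deposited, per the file headers, an estimated count and a TPM for each transcript. Reads that match several transcripts are divided by a model, so copies and short isoforms are uncertain. Library totals were 61167075 to 101189225 estimated reads, and no pair of libraries of a genotype agreed within sampling noise.

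Of 136288 transcripts, 136176 matched GENCODE M21 and were summed over 53458 genes; the other 112 held at most 0.0365% of reads and were left out. Where a symbol had several entries, that with the most reads was used. Counts were rounded, filtered (filterByExpr, minimum count 10), TMM-scaled and tested with edgeR 4.0.16 (glmQLFit, genotype only, two-sided, R 4.3.3) over 20654 genes, with Benjamini-Hochberg adjusted p-values and a threshold of 0.05. Intervals (95%) use the model's degrees of freedom. The procedure was tested on simulated data. Log2 CPM used a prior count of 2. Alternatives were DESeq2 1.42.0, limma 3.58.1 on log2(TPM + 1) and log2(TPM + 0.1), other scaling and filters, length-scaled counts, a replicate block and each library left out. Copies were sought with BLAST+ 2.17.0 (at least 95% identity over 50% of the length called near-identical).

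The members, lists and tests were chosen with earlier results of these data known. Named were all members and regulators, the 4 genes of each other list with the highest mean TPM, any list gene past the threshold, and the 6 nearest profiles. Some genes that this rule or the marker check would name are not reported here. Other genes are named as copies or defining markers. CPM per kilobase, the 8-gene sum and the motifs were chosen after seeing the data.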

Additional observations from a re-analysis of the deposited data

How the results depend on the processing

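No secondary granule gene passed under any alternative. All members except Chil3 and Lyz2 had a positive log2 difference in every alternative, and the median of the 10 ranged from 1.16 to 1.81 over the alternatives that used all 6 libraries and from 0.44 to 3.50 with 1 library left out. Of single members with all libraries, Ifitm6 moved from 0.81 to 0.058 with the replicate block and to 0.11 and 0.10 with limma at pseudocounts of 1 and 0.1. Itgb2l moved from 1.18 to 2.41, 2.21 and 2.48, and Wfdc21 from 1.36 to 2.86, 2.71 and 2.75, under the same settings. At an unadjusted p under 0.05 there were 0 members, but 6 without WT library 3, 2 with the replicate block, 2 without a filter, and 1 with DESeq2 and 1 without G643W library 1. Over all genes that count was 1996, or 9.66% of those tested. It was 3200 without WT library 3, 3223 without a filter and 2577 with DESeq2. With 1 library left out it ran from 1022 without G643W library 2 to 4525 without G643W library 1. Shares of the genes tested were not counted for the alternatives, so the member counts have no background share beside them. The direction of Chil3 reversed with protein-coding genes alone (0.021), with limma on log2(TPM + 1) and on log2(TPM + 0.1) (0.11 each) and with the replicate block (0.065), and ranged from -0.34 to 0.31 with 1 library left out. Lyz2 ranged from -0.52 to 0.37 with 1 library left out, positive without G643W library 1. Over all genes, the 25 past the threshold became 16 without a scaling factor, 428 with DESeq2, 104 without a filter, 10 with length-scaled counts, 43 with limma on log2(TPM + 0.1) and 2 on protein-coding genes alone, and 0 (without WT library 2) to 16 (without G643W library 1) with 1 library left out; the cause was not tested. The paired fit (replicate block) called 0, with 1772 genes at an unadjusted edgeR p under 0.05. For libraries of the same number, deviations from the genotype means had correlations of 0.11, -0.16 and 0.18 for numbers 1, 2 and 3. Pairs of unlike number ran from -0.28 to 0.23. These values cannot decide whether libraries of the same number were paired, and the labels name no pairing. The biological coefficient of variation was 52.8%, and the lowest read number of a member in a library was 316.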

Other observations

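Some family relatives ranked the libraries as a member did and others did not. Of 14 listed relatives 12 were tested, 0 passed with edgeR in either direction, and the median log2 difference was -0.48. An unadjusted edgeR p under 0.05 was found for 4 of the 12, beside 9.66% of all tested genes. Itgb2, the beta 2 integrin chain related to Itgb2l, lay at 140.3, 158 and 299 CPM per kilobase in WT and at 105, 665 and 502 in G643W libraries, with the libraries in the same order as for Ifitm6. Chil1, whose levels are given among the specific granule genes, ranked the libraries as Pglyrp1 did. Ifitm3, a relative of Ifitm6, lay at 478, 74.3 and 242 in WT and at 39.4, 80.0 and 120 in G643W libraries, highest in WT library 1, where Ifitm6 was low. Ifitm2 stayed between 153 and 370.4. Trf, which encodes transferrin and is a relative of Ltf, was singled out after its values were seen, as the 1 of 12 tested relatives whose genotypes did not overlap, beside 15.9% of all tested genes. It lay at 49.9, 42.1 and 44.7 in WT and at 26.4, 11.7 and 18.1 in G643W libraries, with a log2 difference of -1.28 ± 0.31 (SE) and an adjusted p of 0.409 from edgeR and 0.0318 from DESeq2.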
